A study of Mus musculus with 192 samples.

Results

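Aldoc and Glul are genes of enzymes that are used as markers of astrocytes, and their levels were followed here over a grid of small tissue cubes, called voxels, from the mouse brain. The members were chosen by name: every row of the deposited array table whose platform gene symbol was Aldoc or Glul was taken on its own, and the rows of each gene were averaged. This gave 4 rows, 2 for each gene, of 20847 rows in the table, and 2 genes among the 15617 genes and unnamed rows that were tested.

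The study hybridised voxel RNA and whole brain RNA on 2-colour arrays, with 1 voxel sample per array. The arrays covered 68 grid positions, named by rows A to G and columns 1 to 11, and the labels name no brain region and no direction for the grid. All mice, those behind the whole brain RNA included, were C57BL/6 males of postnatal day 56, and the sample labels name no allele or agent. The labelling protocol speaks of samples treated with LiCl, which no sample label does, so whether any were is not known here. The 3 datasets, independently harvested, held 59, 68 and 65 arrays, and 56 positions were measured in all 3 while 12 were measured in 2 of them. The source labels call the voxel RNA pooled, without saying what was pooled, so the spread between datasets may hold a spread between pools of tissue and not between single animals.

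Aldoc encodes aldolase C, the brain form of the glycolytic enzyme that splits fructose bisphosphate into triose phosphates. Glul encodes glutamine synthetase, which joins ammonia to glutamate that astrocytes take up from synapses, and the glutamine made is returned to neurons. Aldolase C is also made by Purkinje cells of the cerebellum, and glutamine synthetase is also found in part of the oligodendrocytes, so neither gene marks astrocytes alone. In bulk tissue cubes, a position with fewer cells of a type and one with less RNA per cell cannot be told apart.

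Aldoc lies on chromosome 11 of the mouse build GRCm38.p6 at chr11:78323073-78327781 and Glul on chromosome 1 at chr1:153899929-153909723, both on the plus strand. Where in the transcripts the array probes lie was not analysed here. The promoters are shown because both genes carry the same cell type label while their maps, described below for each gene, were little alike. Each window runs from 250 bases before to 50 bases after the gene start in RefSeq, plus strand, with motif matches in capitals.
Aldoc, chr11:78322823-78323122: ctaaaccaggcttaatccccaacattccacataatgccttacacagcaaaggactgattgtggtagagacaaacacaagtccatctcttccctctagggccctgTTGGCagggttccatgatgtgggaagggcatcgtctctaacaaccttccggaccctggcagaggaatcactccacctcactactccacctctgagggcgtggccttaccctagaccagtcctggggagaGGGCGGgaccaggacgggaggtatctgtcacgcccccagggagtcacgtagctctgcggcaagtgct
Glul, chr1:153899679-153899978: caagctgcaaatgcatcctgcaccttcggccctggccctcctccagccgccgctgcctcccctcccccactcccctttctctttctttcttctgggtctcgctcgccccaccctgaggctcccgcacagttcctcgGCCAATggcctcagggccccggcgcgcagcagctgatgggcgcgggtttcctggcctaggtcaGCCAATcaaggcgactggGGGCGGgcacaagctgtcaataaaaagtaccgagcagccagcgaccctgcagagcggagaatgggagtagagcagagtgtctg

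Both strands were searched for the TATA box motif TATAA, the CAAT box motif CCAAT, the GC box motif GGGCGG, the E box motif CACGTG, and TTGGC, the core of a site for nuclear factor I. The Aldoc window held GGGCGG at -17 and TTGGC at -146, counted in bases from the gene start to the first base of the match. The Glul window held CCAAT at -113 and -50 and GGGCGG at -33, and each CCAAT there overlapped a match of TTGGC on the opposite strand, from which the capital G before it comes. TATAA and CACGTG were in neither window. Of 32851 promoter windows of this length, 35.7% held GGGCGG, 46.7% TTGGC, 37.4% CCAAT, 24.9% TATAA and 7.15% CACGTG. The GC content was 56.3% for Aldoc and 64.3% for Glul, against a median of 52.7% over all windows. These matches describe letters in the windows and no more. RefSeq lists a second Aldoc window, which held none of the motifs.

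The deposited values were log2 ratios. Each row had been centred on its own median (99.9% of rows had a median within 0.001 of 0), so positions can be compared with each other, but a voxel's level relative to whole brain and the levels of different genes cannot. The labels give the dyes (voxel RNA in Cy3 in datasets 1 and 3, in Cy5 in dataset 2) and not the numerator, so the reading of a higher value as more voxel RNA is likely and not stated. The basis is that the choroid plexus gene Ttr and the striatal gene Ppp1r1b had compact blocks of high values that recurred between datasets. The lowest correlation of 2 arrays of 1 dataset was -0.59, with 0.923% of the pairs below -0.3, and no array was turned round, since the labels name the dyes and brain regions can oppose each other. In dataset 2, the 6 arrays labelled D1 to D3 and D5 to D7 correlated with the same positions of the other datasets at a mean of -0.24 over 300 features as labelled and at 0.59 in reverse order, so the tests of both genes and their correlations between datasets and with each other are given also without them. The mirror correlations, list maps and most alike genes were computed with them only. None of the 4 member rows had a missing or floor value on any array. Levels below are log2 ratios less the mean of their dataset over the 56 common positions, given as mean ± SD over datasets. In the zone tests the p-values measure the spread of 1 difference per dataset over the 3 datasets. In the tests among positions they measure the spread of single arrays at a position, with dataset means removed. The profile tests do the same with 1 mean per dataset and grid row or distance. Apart from the dataset mean, these tests treat the arrays of 1 dataset as independent.

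Aldoc differed among positions, with its highest mean levels at C8, C4, B5, B7, B8, A5 and A7 and its lowest at A10, E5, B2, E7 and A3. The means of the 68 positions spanned 1.53 on the log2 scale, a 2.89-fold range. In the limma moderated F test with dataset as a block, Aldoc had F = 2.30 and an adjusted p of 0.00138, rank 319 of the features, where 4.9% of all features were called. The call held without the row D arrays in doubt (limma adjusted p = 0.000438) and without dataset 3 (limma adjusted p = 0.0179). It was lost without dataset 1 (F = 1.48, limma adjusted p = 0.59) and without dataset 2 (F = 1.86, limma adjusted p = 0.251).

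At C8 the Aldoc level was 0.60, 1.19 and 0.41 in datasets 1 to 3, with a mean of 0.73 ± 0.40. At C4, which mirrors C8 about column 6, it was 0.65, 0.80 and 0.29, with a mean of 0.58 ± 0.26. All 6 of these values lay above the dataset means, and dataset 2 was the highest and dataset 3 the lowest at both positions. In row B, Aldoc averaged 0.46 ± 0.22 at B7 and 0.45 ± 0.29 at B8 (n = 3 each), and 0.47 ± 0.31 at B5, which dataset 1 lacks. In row A the levels at A5 were 0.53, 0.34 and 0.40 (0.42 ± 0.10), and those at A7 averaged 0.41 ± 0.21. B6, between these positions, had a mean of -0.10 ± 0.28, with 1 dataset above its mean and 2 below.

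At the low end, E7 had Aldoc levels of -0.47, -0.78 and -0.41 in datasets 1 to 3 (-0.55 ± 0.20), E4 averaged -0.40 ± 0.21 and E9 averaged -0.36 ± 0.07. All 9 of these values lay below the dataset means. E5 averaged -0.63 ± 0.68, and its values of -0.49, -1.38 and -0.03 show that dataset 2 set that mean. A10 had the lowest mean, -0.80 ± 0.72, from only 2 datasets (-1.31 and -0.29), and B2 likewise averaged -0.59 ± 0.41 (n = 2). A3 averaged -0.54 ± 0.53. In this order of positions, none of the 67 neighbouring pairs differed by more than the larger of their SDs. Neighbours in a sorted list have small gaps by construction (largest 0.17, against a median SD of 0.21), so this does not tell which positions differ.

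**Figure D1:**
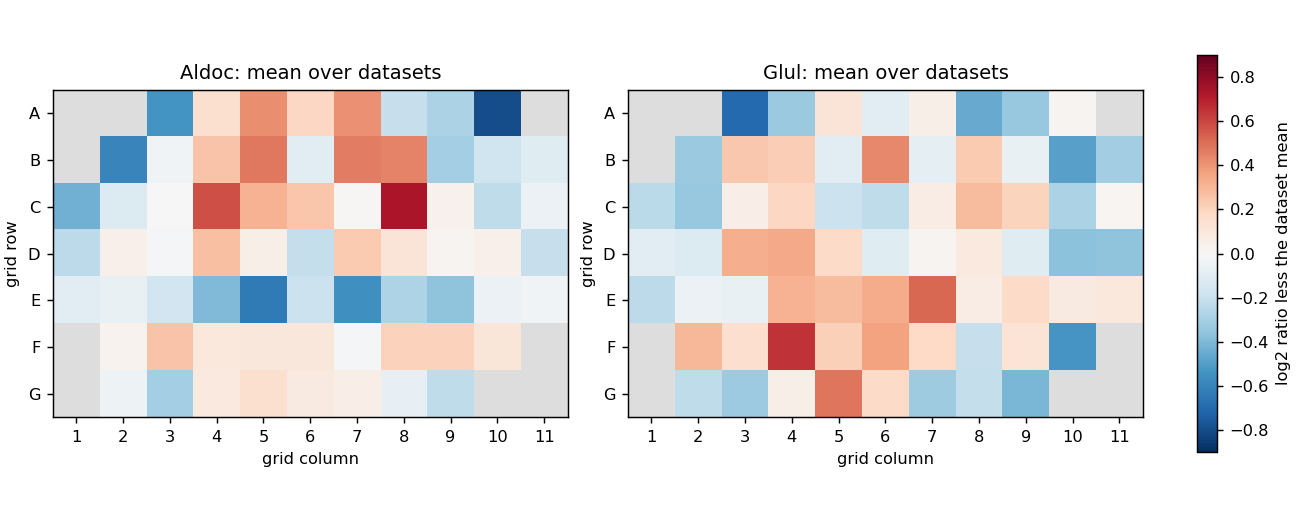
Maps of Aldoc (left) and Glul (right) over grid rows A to G and grid columns 1 to 11, where colour gives the mean over datasets of the log2 ratio less the dataset mean and grey cells have no position. Aldoc was highest at C8 (0.73) and C4 (0.58) and lowest at A10 (-0.80), while Glul was highest at F4 (0.65) and lowest at A3 (-0.70).

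The order of positions recurred in part between datasets. Aldoc had the same sign in all 3 datasets at 24 of the 56 common positions (42.9%), where the median feature had 26.8%. Its maps in pairs of datasets correlated across positions at 0.43 (datasets 1 and 2, n = 59), 0.40 (1 and 3, n = 56) and 0.24 (2 and 3, n = 65), where the median features had 0.055, 0.028 and 0.0036. Without the row D arrays in doubt, the pairs with dataset 2 gave 0.49 (with dataset 1) and 0.30 (with dataset 3). For scale, Ppp1r1b, a striatal signalling gene, had 0.57, 0.76 and 0.75. The left and right sides matched closely: over 29 positions of columns 1 to 5 and their mirror positions in columns 7 to 11, Aldoc means correlated at 0.82, above 99.4% of features, against a median of 0.12. Within datasets 1, 2 and 3 this mirror correlation was 0.78, 0.61 and 0.35. All these correlations describe positions of shared arrays.

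Glul gave another map. Its highest means were at F4, E7, G5 and B6 and its lowest at A3, F10, B10 and A8, with a range of 1.35 on the log2 scale (2.55-fold). It did not pass the test among positions (limma F = 1.56, unadjusted p = 0.016, adjusted p = 0.19, rank 1317). With array weights, a setting under which 2524 features were called in place of 766, Glul did pass (F = 2.16, limma adjusted p = 0.00163), as did Aldoc (F = 3.16, limma adjusted p = 6.65e-07). Over the other alternatives the adjusted p of Glul lay between 0.0536, with quantile normalization, and 0.992, without dataset 1. Without the row D arrays in doubt it was 0.248 in limma.

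At F4 the Glul level was 1.30, 0.19 and 0.47 in datasets 1 to 3 (0.65 ± 0.58), and at E7 it was 0.12, 1.29 and 0.15 (0.52 ± 0.67). At each of these positions 1 dataset, not the same one, stood far above the other 2. Levels closer together were found at B6 (0.54, 0.19 and 0.56, mean 0.43 ± 0.21) and at D4 (0.34, 0.46 and 0.24, mean 0.34 ± 0.11). The datasets also differed little at the lowest position, A3, which had -0.74, -0.68 and -0.69, a mean of -0.70 ± 0.03. D11, with -0.36 ± 0.06, C2, with -0.34 ± 0.11, and A4, with -0.34 ± 0.09, also lay below the mean in every dataset. G9 averaged -0.41 ± 1.02 because dataset 3 had -1.57 there, while datasets 1 and 2 had 0.01 and 0.33. Aldoc was also low on that dataset 3 array, at -1.21, against -0.14 and 0.67 in datasets 1 and 2.

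As for Aldoc, none of the 67 neighbouring pairs of positions in the Glul order differed by more than the larger SD, which again does not tell which positions differ. Glul had the same sign in all 3 datasets at 22 of 56 positions (39.3%). Its maps correlated between datasets at 0.24, 0.20 and 0.089, lower than those of Aldoc in each pair, and without the row D arrays in doubt the pairs with dataset 2 gave 0.24 and 0.095. Its mirror correlation was 0.34 over all datasets, and -0.041, -0.010 and 0.37 within datasets 1 to 3.

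**Figure D2:**
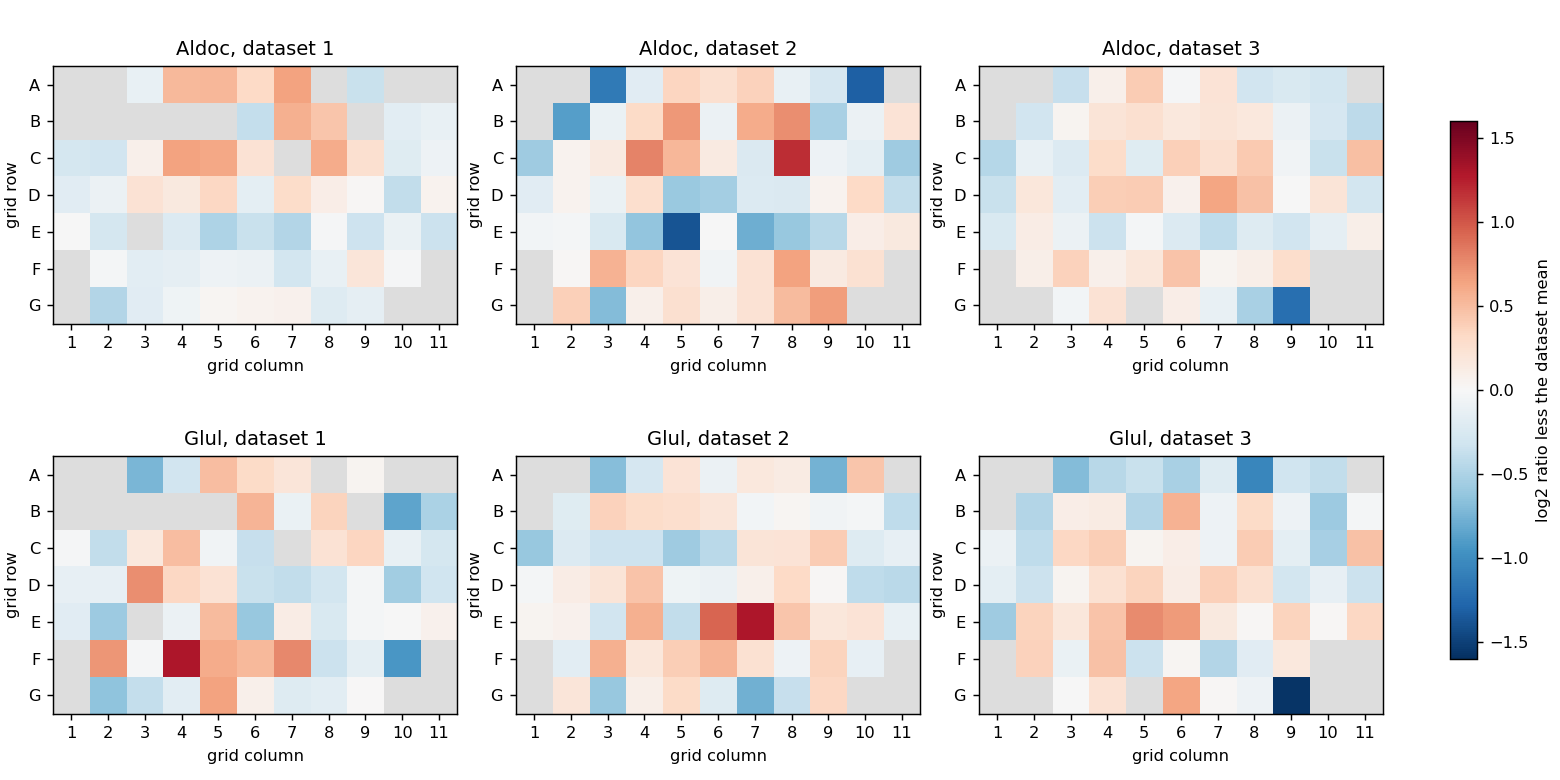
The same maps for each dataset (columns of panels) for Aldoc (top) and Glul (bottom), with colour as the log2 ratio less the dataset mean. Aldoc lay above the dataset mean at C4 and C8 in all 3 datasets. In dataset 3 other positions, such as D7 (0.63) and C11 (0.49), were higher than C8 (0.41) and C4 (0.29). The Glul values of 1.30 at F4 and 1.29 at E7 each come from 1 dataset.

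The 2 rows of Aldoc followed each other more closely than those of Glul. Rows vm000547 and vm009917 of Aldoc correlated at 0.79 over the 56 common positions, and at 0.75, 0.82 and 0.40 within datasets 1 to 3. Rows vm000190 and vm010893 of Glul correlated at 0.61, and at 0.60, 0.58 and 0.34 within the datasets. Fitted singly among 19683 rows, of which 4.81% were called, both Aldoc rows passed (vm000547 F = 2.07, limma adjusted p = 0.00757, and vm009917 F = 1.94, limma adjusted p = 0.0193). Both calls were lost without dataset 1 (limma adjusted p = 0.924 for vm000547 and 0.391 for vm009917) and without dataset 2 (0.384 and 0.846). Row vm009917 was also lost without dataset 3 (limma adjusted p = 0.0824) and without the dataset block (0.213). Neither Glul row passed (vm000190 F = 1.17, limma adjusted p = 0.717, and vm010893 F = 1.71, limma adjusted p = 0.0875).

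At C8 row vm000547 averaged 0.61 ± 0.34 and row vm009917 averaged 0.85 ± 0.47, both above the mean in every dataset. At E7 they averaged -0.59 ± 0.12 and -0.51 ± 0.35, both below it in every dataset. The Aldoc rows parted at B7, with means of 0.62 ± 0.32 in vm000547 and 0.30 ± 0.76 in vm009917. In dataset 3 they had 0.99 and -0.57 there, so the gene level of that array averages opposite readings. The Glul rows were both high at F4, with 0.56 ± 0.72 in vm000190 and 0.74 ± 0.54 in vm010893, and both low at A3, with -0.39 ± 0.14 and -1.02 ± 0.15. The Glul rows parted at B6, where vm000190 had its highest mean (0.92 ± 0.65) and vm010893 had -0.07 ± 0.44. The dataset 3 value at G9 came from vm010893, which had -2.86 there, while vm000190 had -0.29.

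Over the 56 common positions the Aldoc and Glul means correlated at 0.21 (Pearson, Spearman 0.23), and at 0.20, 0.059 and 0.48 within datasets 1, 2 and 3. Without the row D arrays in doubt the correlation of the means was 0.22 and that within dataset 2 was 0.053. Each of these values is below the correlation of the 2 rows of either gene over the same positions, except in dataset 3, where it exceeded the 0.40 of the Aldoc rows and the 0.34 of the Glul rows. Among the 8401 other named genes, Glul ranked 1662nd in likeness to Aldoc, and Aldoc ranked 1634th in likeness to Glul, by the lowest of the 3 within-dataset correlations (0.067).

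**Figure D3:**
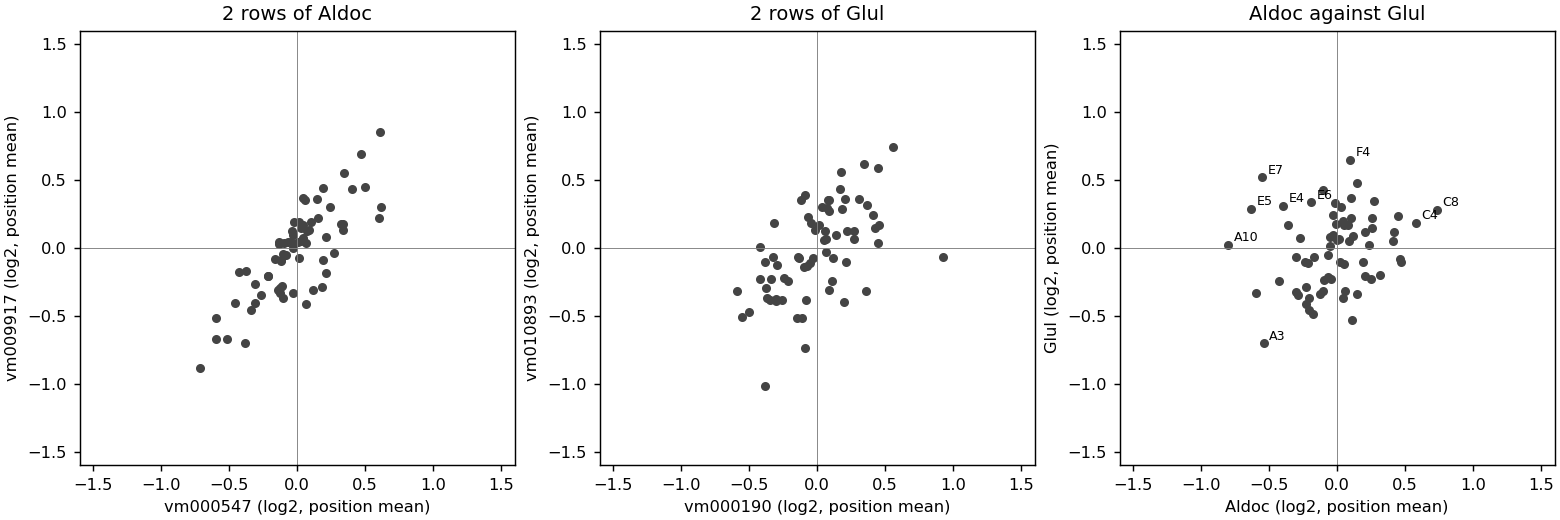
Each point is a grid position, with means over datasets of the log2 ratio less the dataset mean on both axes, for the 2 Aldoc rows (left), the 2 Glul rows (middle) and Aldoc against Glul (right). Aldoc rows correlated at 0.79, Glul rows at 0.61 and the genes at 0.21 (n = 56 positions in all 3 datasets). E4 to E7 lie at the upper left of the right panel, low in Aldoc and high in Glul.

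In their means over datasets the genes parted, among other places, at 4 adjacent positions, E4 to E7. These were chosen after their values were seen and are therefore described without a test. Aldoc had mean levels of -0.38, -0.70 and -0.25 at these positions in datasets 1 to 3, against 0.02, 0.02 and 0.01 at the other common positions. Glul had -0.02, 0.60 and 0.51 at these positions, against -0.02, -0.01 and -0.07 elsewhere. Aldoc was thus lower in the block in all 3 datasets, while Glul was higher in datasets 2 and 3 and level in dataset 1. By position, Glul was below 0, as Aldoc was, at E4 (-0.09) and E6 (-0.61) in dataset 1 and at E5 (-0.39) in dataset 2. Within the block, only at E7 did the genes have opposite signs in all 3 datasets. Outside it, B7 showed this the other way round, with 0.57, 0.59 and 0.21 for Aldoc and -0.11, -0.05 and -0.08 for Glul. There the 2 Aldoc rows disagreed in dataset 3. The difference between block and rest was -0.46 ± 0.23 for Aldoc and 0.39 ± 0.35 for Glul. Ttr, the thyroid hormone carrier made by the choroid plexus, had 3.58, 3.13 and 3.40 in the same block, against -0.28, -0.35 and -0.29 elsewhere. The block has no sharp end at E7. At E8 Ttr was also high (3.44 ± 0.68), with Aldoc at -0.28 ± 0.30 but Glul near 0 (0.07 ± 0.34). At E9 Aldoc averaged -0.36 ± 0.07 and Glul 0.17 ± 0.19. All 6 measured genes of the choroid plexus and ependyma list were above their means at E4, E6 and E7, and 5 of 6 were at E5. The list's mean level was between 0.95 and 1.34 at the 4 positions, and its part in the Aldoc and Glul values was not tested. The myelin list was also high there, between 0.58 and 0.67.

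Along columns, both genes were higher near the middle of the grid. In columns 5 to 7 the Aldoc mean was 0.23, 0.02 and 0.02 in datasets 1 to 3, against 0.04, -0.13 and -0.26 in columns 1 to 3 and 9 to 11. The Glul mean was 0.16, 0.05 and 0.21 in columns 5 to 7, against -0.17, -0.13 and 0.00038 in the outer columns (zone means are log2 ratios with no dataset mean taken off). Within each dataset the middle columns were the higher ones for both genes. The difference was 0.21 ± 0.06 for Aldoc (SD, n = 3 datasets, 95% interval 0.04 to 0.37, limma adjusted p = 0.317) and 0.24 ± 0.08 for Glul (n = 3, 95% interval 0.07 to 0.41, limma adjusted p = 0.284). Neither passed, with unadjusted limma p-values of 0.0225 for Aldoc and 0.0136 for Glul. In this comparison limma called 0 of 15617 features (0%), with 2054 at an unadjusted p under 0.05, and Aldoc lay above 93.7% and Glul above 95.7% of all features. Without the row D arrays in doubt the differences were 0.23 for Aldoc (limma adjusted p = 0.237) and 0.25 for Glul (limma adjusted p = 0.224). All 4 rows were higher in the middle columns in every dataset, by means between 0.20 and 0.24. The difference of Aldoc less that of Glul was -0.13, -0.03 and 0.06 in the 3 datasets (exact sign-flip permutation test, two-sided p = 0.75, with 0.25 the smallest p that 3 datasets allow).

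By distance from column 6, Aldoc averaged 0.02 ± 0.10 at column 6 itself, 0.10 ± 0.07 at a distance of 1 column, 0.15 ± 0.07 at 2, -0.11 ± 0.06 at 3, -0.13 ± 0.06 at 4 and -0.17 ± 0.03 at 5. At distances 3, 4 and 5 every dataset lay below 0 and at distances 1 and 2 every dataset lay above it. Glul averaged 0.12 ± 0.11, 0.10 ± 0.13 and 0.10 ± 0.02 at distances 0, 1 and 2, and -0.06 ± 0.08, -0.20 ± 0.16 and -0.16 ± 0.10 at distances 3, 4 and 5. Both sides of the grid shared this for Aldoc, with 0.14 ± 0.01 in column 4 and 0.15 ± 0.14 in column 8, and -0.11 ± 0.10 in column 3 and -0.12 ± 0.10 in column 9. Glul had 0.20 ± 0.06 in column 4 and -0.01 ± 0.09 in column 8, and its lowest column mean was that of column 10 (-0.28 ± 0.24). In the limma F test over distance, which called 1.38% of features, neither gene passed (Aldoc F = 5.59, adjusted p = 0.144, and Glul F = 4.11, adjusted p = 0.261). Aldoc passed only when the test was restricted to rows measured on every array (limma adjusted p = 0.047). Over all features but without the row D arrays in doubt, the limma adjusted p was 0.0849 for Aldoc and 0.202 for Glul.

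**Figure D4:**
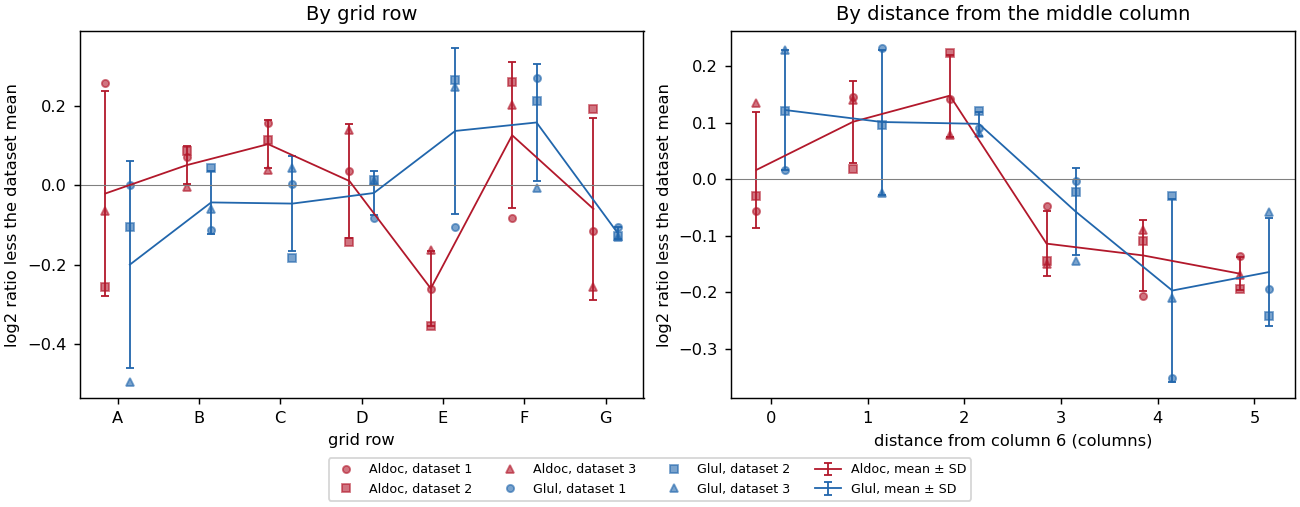
Mean log2 ratio less the dataset mean of Aldoc (red) and Glul (blue) by grid row (left) and by distance from column 6 in columns (right), with a point for each dataset and lines for mean ± SD (n = 3). Both genes lie above 0 up to 2 columns from column 6 on average and below 0 from 3 columns on, and in row E Aldoc averages -0.26 while Glul averages 0.14.

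Over the rows of the grid the 2 genes had unlike profiles. Aldoc averaged -0.02 ± 0.26, 0.05 ± 0.05, 0.10 ± 0.06, 0.01 ± 0.14, -0.26 ± 0.10, 0.13 ± 0.18 and -0.06 ± 0.23 in rows A to G. Row E was its lowest row on average, with -0.26, -0.35 and -0.16 in datasets 1 to 3, and row C was above 0 in every dataset. Glul averaged -0.20 ± 0.26, -0.04 ± 0.08, -0.05 ± 0.12, -0.02 ± 0.05, 0.14 ± 0.21, 0.16 ± 0.15 and -0.12 ± 0.01 in rows A to G. Its row G lay at -0.10, -0.13 and -0.13, while row E ranged from -0.10 in dataset 1 to 0.27 in dataset 2. Neither profile over rows passed the limma F test, which called 1.09% of features (Aldoc F = 1.50, adjusted p = 0.701, and Glul F = 1.76, adjusted p = 0.659), nor did it without the row D arrays in doubt (limma adjusted p = 0.686 for Aldoc and 0.667 for Glul).

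For rows A-B less rows F-G, the Aldoc difference was 0.27, -0.29 and -0.04 in datasets 1 to 3, so the datasets did not share a direction. Its means were 0.04 ± 0.26 in rows A-B and 0.06 ± 0.18 in rows F-G (difference -0.02 ± 0.28, n = 3, limma adjusted p = 0.976). Glul differed by -0.15, -0.07 and -0.19, lower in rows A-B in every dataset, with means of -0.08 ± 0.03 in rows A-B and 0.06 ± 0.06 in rows F-G (difference -0.14 ± 0.06, n = 3, limma adjusted p = 0.753). That difference was carried by row vm010893 (-0.31 ± 0.07), since row vm000190 averaged 0.04 ± 0.19. Here 0.109% of features were called. Rows C-E less the other rows gave -0.07 ± 0.12 for Aldoc (n = 3, limma adjusted p = 0.887) and 0.06 ± 0.19 for Glul (n = 3, limma adjusted p = 0.918), with 0.0064% of features called. Leaving out the row D arrays in doubt gave -0.06 for Aldoc and 0.06 for Glul.

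At the edge of the grid Glul was lower in every dataset. Its perimeter means were -0.10, -0.21 and -0.08 in datasets 1 to 3, against 0.05, 0.08 and 0.22 in the interior. The difference was -0.25 ± 0.09 (n = 3, 95% interval -0.43 to -0.06, limma unadjusted p = 0.0157, adjusted p = 0.284) and did not pass, where 0.109% of features were called, all of them lower at the perimeter. Of these 17 features, 4 belonged to the myelin list described further on. Aldoc had 0.14, -0.08 and -0.27 at the perimeter, against 0.16, 0.04 and -0.05 in the interior, a difference of -0.12 ± 0.11 (n = 3, limma adjusted p = 0.561). The perimeter less interior difference of Aldoc less that of Glul was 0.13, 0.17 and 0.08 in datasets 1 to 3 (exact sign-flip permutation test, two-sided p = 0.25, the smallest p that 3 datasets allow). Leaving out the row D arrays in doubt gave differences of -0.13 for Aldoc and -0.25 for Glul (limma adjusted p = 0.519 and 0.275).

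Left and right did not differ detectably in either gene. Over mirror pairs, columns 1-5 less columns 7-11 gave -0.01, -0.12 and 0.04 for Aldoc in datasets 1 to 3 (-0.03 ± 0.09, 95% interval -0.18 to 0.12, limma adjusted p = 0.977) and 0.26, -0.06 and 0.11 for Glul (0.10 ± 0.16, 95% interval -0.08 to 0.29, limma adjusted p = 0.974). With the row D arrays in doubt left out these were -0.03 for Aldoc and 0.09 for Glul. Limma called 0 of 15617 features (0%), with 497 at an unadjusted p under 0.05. Whether the middle-column difference was the same in rows C-E as in rows F-G was tested directly, and the difference of the differences was -0.06 ± 0.13 for Aldoc (n = 3, limma adjusted p = 0.987) and -0.11 ± 0.45 for Glul (n = 3, limma adjusted p = 0.983), or -0.04 and -0.07 without the row D arrays in doubt. Limma called 0 features there too (0%), with 736 at an unadjusted p under 0.05.

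**Figure D5:**
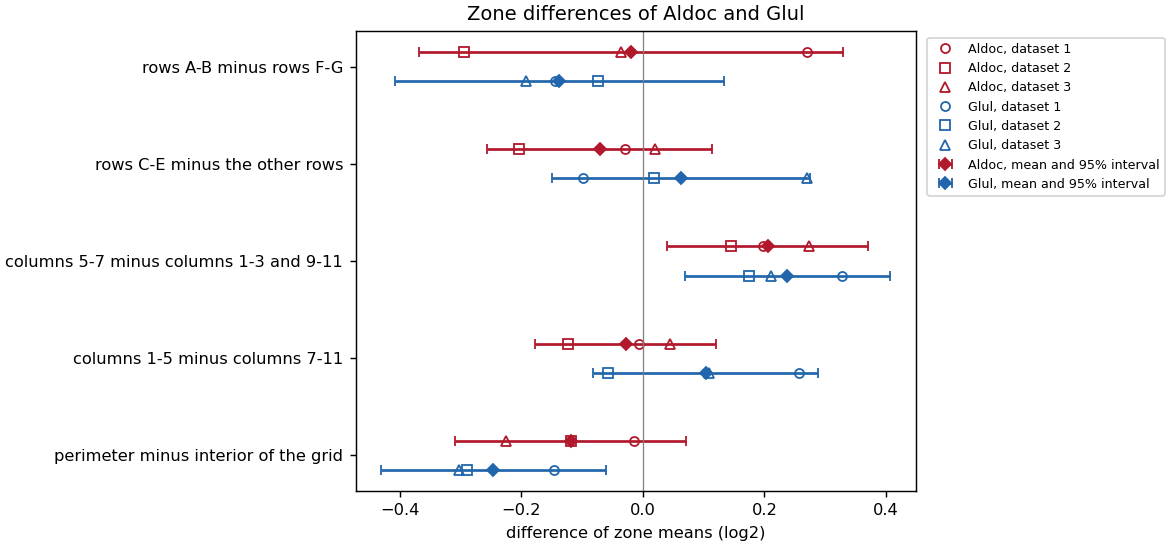
Zone differences in log2 ratio of Aldoc (red) and Glul (blue), with an open symbol for each dataset and a filled symbol for the mean with its 95% interval (n = 3 datasets). For columns 5-7 less the outer columns, all datasets of both genes lie above 0, and for perimeter less interior all 3 Glul values lie between -0.30 and -0.15.

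Of a list of 34 astrocyte genes, 16 were measured and 8 differed among positions, against 4.9% of all features, with a median F of 1.69 (1.04 over all features). Beside Aldoc these were Cst3 (cystatin C), Mt2 (a metallothionein), Sparcl1 (hevin), Atp1b2 (a sodium pump subunit of astrocytes), Acsbg1 (an acyl-CoA synthetase), Gstm1 (a glutathione transferase) and Slc1a3 (the glutamate transporter GLAST). Their limma adjusted p-values lay between 0.00122 (Cst3) and 0.043 (Slc1a3). The map of the other 14 astrocyte genes, averaged, correlated at 0.58 with Aldoc and at 0.43 with Glul over the 56 common positions, and its highest means were at C8 (0.52 ± 0.42) and C4 (0.47 ± 0.22), the same positions as for Aldoc. The members varied in their likeness to the 2 genes. Sparcl1, Atp1b2 and Acsbg1 correlated at 0.70, 0.66 and 0.62 with Aldoc and at 0.48, 0.081 and 0.023 with Glul, whereas Cst3, Mt2 and Gstm1 correlated at 0.32, 0.25 and 0.27 with Aldoc and at 0.62, 0.51 and 0.50 with Glul. Of the 14 other members Dio2 (a thyroid hormone deiodinase), which did not pass among positions, had the lowest value with Aldoc, -0.33, and 0.075 with Glul. These points share arrays, so the values describe the maps only.

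At C8 and C4 markers of other cells were high too. The 7 measured genes of the myelin list averaged 0.70 ± 0.21 at C8, with 6 of 7 above 0, and 0.80 ± 0.20 at C4, with 7 of 7 above 0. The 4 microglia genes averaged 0.39 ± 0.18 at C8, with 3 of 4 above 0, and 0.40 ± 0.19 at C4, with 4 of 4 above 0, the third and second highest of the 68 positions for that list. The 2 blood genes averaged 0.46 ± 0.43 at C8, with both above 0, and 0.26 ± 0.14 at C4, with 1 of 2 above 0, and their highest mean was at G8 (0.88). Hbb-b1, a haemoglobin gene of red blood cells, had its highest mean at C8 (0.79, limma adjusted p = 0.0415 among positions). The 5 vascular genes averaged 0.04 ± 0.26 at C8 and 0.06 ± 0.18 at C4, and the 6 choroid plexus and ependyma genes -0.12 ± 0.11 and -0.11 ± 0.08. The 7 neuron genes averaged 0.03 ± 0.29 at C8 and -0.12 ± 0.12 at C4. The ratios carry no absolute level, so no marker can be called absent, and the part of these cells in the Aldoc levels was not tested.

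The glycolysis list had 16 of 23 genes measured and 2 called, against 4.9% of all features. These were Ldhb (a lactate dehydrogenase subunit, limma adjusted p = 5.07e-05) and Aldoc. Next to them Eno3 (the muscle form of enolase) had a limma adjusted p of 0.0552 and Hk1 (hexokinase) one of 0.143. The other 15 genes, averaged, correlated at 0.38 with Aldoc and at 0.33 with Glul, with their highest mean at F4 (0.41 ± 0.26), which is also where Glul was highest, and their lowest at A10 (-0.50 ± 0.54, n = 2), where Aldoc was lowest. Ldhb was highest at C4 (0.98) and correlated at 0.59 with Aldoc. Aldoa, the paralogue of Aldoc that most tissues express, did not pass (limma F = 1.48, adjusted p = 0.282). Its map correlated with that of Aldoc at 0.37, and at 0.091, 0.67 and 0.53 within datasets 1 to 3. Its highest mean was at F3 (0.60 ± 0.47). Aldoc and Aldoa are similar in sequence, and whether their probes shared signal was not tested.

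In the list of glutamate and glutamine metabolism 13 of 24 genes were measured and 5 called, against 4.9% of all features. These were Glud1 (glutamate dehydrogenase, limma adjusted p = 7.03e-05), Slc38a1 and Slc38a2 (glutamine transporters, 0.00261 and 0.00944), Got1 (aspartate aminotransferase, 0.0112) and Slc1a3 (0.043). The other 12 genes, averaged, were more like Aldoc (0.62) than like Glul (0.31), with their highest mean at C8 (0.28 ± 0.08). Got1 correlated at 0.73 with Aldoc and at 0.24 with Glul, while Slc38a2 correlated at 0.25 with Aldoc and at 0.53 with Glul. Slc1a3 had its lowest mean at F4 (-0.51), where Glul was highest, and correlated at 0.52 with Aldoc and at -0.062 with Glul.

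The myelin list stood closer to Glul. Of 27 genes 7 were measured, and 5 were called, against 4.9% of all features. These were Bcas1 (a myelin protein, F = 8.27, limma adjusted p = 1.34e-20), Cryab (a small heat shock protein), Qdpr (dihydropteridine reductase), Septin4 and Gsn (gelsolin). The averaged list correlated at 0.24 with Aldoc and at 0.62 with Glul. Each of the 5 had a lower correlation with Aldoc than with Glul, between 0.098 and 0.29 with Aldoc and between 0.51 and 0.65 with Glul. The list was highest at D4 (0.93 ± 0.23), where Aldoc averaged 0.27 ± 0.12 and Glul 0.34 ± 0.11. At A3 it averaged -0.58 ± 0.32, with 0 of 7 genes above 0, beside the lowest mean of Glul. The part of oligodendrocyte RNA in the Glul levels was not tested.

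For each list below, the count called among positions stands against 4.9% of all features. The neuron list had 7 of 19 genes measured and 5 called (Gap43, Chn1, Nrgn, Syn1 and Nefl). The averaged map of the neuron list correlated at -0.14 with Aldoc and at -0.31 with Glul. Its members went different ways with Aldoc, from 0.53 for Uchl1, which was not called, and 0.32 for Gap43 to -0.37 for Nrgn and -0.45 for Chn1. The averaged neuron list was lowest at A6 (-0.60). Of the microglia list 0 of 4 measured genes were called by limma, with 1 at an unadjusted p under 0.05 (C1qc, a complement gene, adjusted p = 0.241), beside C1qa (0.79), Fcer1g (0.901) and C1qb (0.965), and of the vascular list 0 of 5, with 1 at an unadjusted p under 0.05 (Slc2a1, the glucose transporter of brain endothelium, adjusted p = 0.133), beside Pdgfrb (0.535), Cdh5 (0.905) and Pecam1 (0.907). The microglia list correlated at 0.21 with Aldoc and 0.49 with Glul, and the vascular list at 0.19 and 0.28. Of the choroid plexus and ependyma list 3 of 6 measured genes were called, Ttr, Ccdc153 (of ciliated cells) and Rarres2 (chemerin), and next to them S100a6, a calcium-binding protein, had a limma adjusted p of 0.51. This list, averaged, correlated at -0.50 with Aldoc and at 0.31 with Glul, opposite in sign. Every member lay below 0 with Aldoc. With Glul, Folr1 (-0.083) and S100a6 (-0.0031) lay below 0 too and the others above it. Within datasets 1 to 3, Ttr correlated at -0.33, -0.33 and -0.089 with Aldoc and at -0.026, 0.29 and 0.23 with Glul. Of the blood list 1 of 2 measured genes was called, Hbb-b1, which correlated at 0.52 with Aldoc and 0.19 with Glul, and Alas2, of haem synthesis, did not pass (limma adjusted p = 0.61).

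The 5 named genes whose maps were most like that of Aldoc, by the lowest of the 3 within-dataset correlations over the 56 common positions, were Tecr (an enzyme of very long chain fatty acid synthesis, 0.64), Atp5b (a subunit of mitochondrial ATP synthase, 0.64), Hspa8 (the constitutive heat shock cognate, 0.64), Inpp5f (a phosphoinositide phosphatase, 0.63) and Mdh1 (cytosolic malate dehydrogenase, 0.59). Atp5b and Mdh1 had their highest means at C8, as Aldoc did, with 0.78 ± 0.67 and 0.75 ± 0.53. Tecr was highest at A5 (0.70 ± 0.25) and Inpp5f at B8 (0.74 ± 0.50). Hspa8 was highest at C6 (0.45 ± 0.46) and at C8 (0.44 ± 0.37). Tecr, Atp5b and Inpp5f differed among positions (limma adjusted p = 2e-05, 0.0142 and 5.19e-06), and Hspa8 and Mdh1 did not pass (0.403 and 0.0562).

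The 5 most like Glul were Pgk1 (phosphoglycerate kinase, 0.46), Atp1b3 (a sodium pump subunit, 0.45), Bcas1 (0.44), Rnf13 (a ubiquitin ligase, 0.44) and Aplp2 (a relative of the amyloid precursor protein, 0.43). These values are lower than those of the genes most like Aldoc. Pgk1 shared with Glul its highest position, F4 (0.77 ± 0.50). Atp1b3 was highest at E6 (0.82 ± 0.25), and Bcas1 and Rnf13 at D4 (1.59 ± 0.30 and 0.99 ± 0.35). Aplp2 was highest at D5, where its values of 0.89, -0.58 and 0.96 in datasets 1 to 3 include an array of dataset 2 in doubt. Atp1b3, Bcas1 and Rnf13 differed among positions (limma adjusted p = 6.93e-06, 1.34e-20 and 1.56e-07), and Pgk1 and Aplp2 did not pass (0.341 and 0.456).

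Arrays differed in spread and in missing values. The median absolute deviation of an array lay between 0.18 and 1.08, and the array of G8 in dataset 3 had the most values missing or at the floor (41.5%). Across the arrays of a dataset, Aldoc levels correlated with this spread at -0.25, -0.22 and -0.32 in datasets 1 to 3 and Glul levels at 0.25, -0.15 and -0.22. The array of F4 in dataset 1, with the highest Glul value, and that of G9 in dataset 3, with the lowest values of Glul, had deviations of 0.80 and 1.06, against medians of 0.43 and 0.46 in their datasets. The F4 array of dataset 2 had a deviation of 0.93, against a median of 0.33, with a Glul level of only 0.19. The A10 array of dataset 2, where Aldoc was -1.31, had 0.73. The part of this spread in the values of these arrays was not tested.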

How the data were processed

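The authors deposited 1 table of log2 ratios of voxel and whole brain RNA, with 20847 rows and a column per array. RNA was isolated with Trizol and its cDNA coupled to dyes, per the labels' protocols. For the scanner, background correction, normalization and row centring, the method is not given in the sources used here. No intensities were used, so signal over background is unknown, which limits the precision beside the number of arrays.

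Values at the floor of -6.64 (0.483%) were treated as missing, beside 1.93% missing values. Each array was centred on its median (largest shift 0.35). Rows with a value on 80% or more of each dataset's arrays were kept, 20 control rows left out and rows of 1 symbol averaged, as platform annotation names them (13211 rows with 1 symbol, 317 with several, 7319 with none). This gave 15617 features, 8403 of them named.

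Positions and profiles were tested with a moderated F statistic from nested fits in limma 3.58.1 (R 4.3.3), with dataset as a block and Benjamini-Hochberg adjustment over all features. The nested fits replaced limma's own F summary, after results were seen, because that summary misreads weighted fits with missing values. Zones were tested with limma on 1 difference per dataset, two-sided. An adjusted p under 0.05 was called. The fits were tested on simulated data.

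Dataset numbers name independent harvests, so the block comes from the labels. Deviations from position means correlated at a median of 0.24 between arrays of 1 dataset and -0.12 between datasets. The highest correlation of any 2 arrays was 0.84, so none was taken for a duplicate. Subtracting dataset means from displayed levels was chosen after seeing the data.

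Besides Aldoc and Glul, the genes named are the 5 most alike to each by the lowest within-dataset correlation, every called member of each list and the next ones up to 4 in all, and the paralogue Aldoa. Ppp1r1b, for scale, Dio2 and Uchl1, as extremes of their lists in likeness to Aldoc, and the block E4 to E7 were chosen after their values were seen. So was Folr1, the lowest of its list in likeness to Glul. The members, lists and tests were chosen with earlier results of these data known. Alternatives were no block, quantile normalization, no centring, floor values kept, values limited to within 3 of 0, other filters on missing values, array weights, each dataset or the doubtful arrays left out, common positions only and single rows.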

Additional observations from a re-analysis of the deposited data

How the results depend on the processing

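The dataset numbers pair the arrays, and without the replicate block Aldoc still passed among positions (F = 2.08, limma adjusted p = 0.0113) and Glul did not (F = 1.51, 0.464), while row vm009917 lost its call (F = 1.66, 0.213). Without the block 366 features were called among positions, 425 single rows, 49 over rows, 23 over distance, 10 between rows A-B and F-G, 0 for rows C-E and 0 for perimeter less interior, against 766, 947, 170, 216, 17, 1 and 17 with it.

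Aldoc kept its call among positions under 12 of 14 alternatives. With 1 dataset left out, its F lay between 1.48 and 2.39, that of row vm000547 between 1.22 and 2.47 and that of row vm009917 between 1.26 and 1.97. Glul gained a call only with array weights (F = 2.16) and Aldoc over distance only with rows measured on every array (F = 6.03).

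Some uncalled zone values changed sign. Rows A-B less rows F-G gave Aldoc 0.035 over common positions, 0.071 in row vm000547 and between -0.16 and 0.12 with 1 dataset left out, and Glul 0.039 in row vm000190. The middle-column difference in rows C-E less that in rows F-G gave Aldoc 0.0017 with quantile normalization and between -0.13 and 0.00053 with 1 dataset left out, and Glul 0.017 over common positions and between -0.26 and 0.15 with 1 left out. With 1 left out, columns 1-5 less 7-11 gave Aldoc between -0.066 and 0.022, and rows C-E less the others gave Glul between -0.048 and 0.14. The middle-column difference kept its sign under all 16 alternatives for both genes, between 0.17 and 0.24 for Aldoc and between 0.18 and 0.27 for Glul, and passed in none (lowest limma adjusted p 0.107 and 0.0765). Of these, no block, the median of rows, values limited and other filters on missing values left both differences unchanged, so they did not challenge the sign. Glul at the perimeter stayed between -0.30 and -0.20.

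Counts of called features over the whole table moved more. With quantile normalization they were 1161 among positions, 60 for the middle columns, 56 at the perimeter, 422 over distance, 276 over rows, 0 for rows A-B and 0 for rows C-E. With rows measured on every array they were 201 for the middle columns, 128 at the perimeter, 154 for rows A-B and 69 for rows C-E. With floor values kept they were 4 at the perimeter, 133 over distance, 104 over rows, 1 for rows A-B and 0 for rows C-E. Without the filter on missing values they were 7 at the perimeter, 5 for rows A-B and 0 for rows C-E. With values limited they were 8 for the middle columns, 26 for rows A-B and 3 for rows C-E, and over common positions 5, 32 and 0. Array weights gave 2524 among positions, and leaving out the doubtful row D arrays gave 46 for the middle columns. With 1 dataset left out the counts ran from 214 to 529 among positions, 268 to 673 for single rows, 0 to 31 for the middle columns, 0 to 48 at the perimeter, 1 to 8 over distance, 3 to 32 over rows, 0 to 8 for rows A-B and 0 to 6 for rows C-E. The cause was not tested beyond the fewer datasets or rows that a setting leaves. The median of 2 rows equals their mean, so that alternative changed no level or zone difference of Aldoc or Glul. Test statistics, which draw on all features, moved slightly, as in the F of Aldoc over distance (5.591 to 5.593).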

Other observations

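Of the called genes of the myelin list, 3 are given here with their values by dataset, chosen after these were seen. Bcas1 had 1.32, 1.54 and 1.91 at D4 in datasets 1 to 3 (1.59 ± 0.30) and -1.58, -1.12 and -1.61 at C1 (-1.44 ± 0.28). Cryab had 1.34, 1.59 and 1.20 at C4 (1.38 ± 0.19) and 1.01, 1.91 and 1.13 at C8 (1.35 ± 0.49), the pair of mirror positions at which Aldoc was highest. Qdpr, which recycles the tetrahydrobiopterin cofactor, had 1.09, 1.00 and 1.22 at C4 (1.10 ± 0.11) and 0.91, 1.14 and 0.99 at C8 (1.01 ± 0.12). All 3 datasets lay above the mean at both positions for Cryab and Qdpr.

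Among the glial glutamate genes, Slc1a3 had 0.53, 0.76 and 0.38 at C4 (0.56 ± 0.19) and -0.49, -0.93 and -0.11 at F4 (-0.51 ± 0.41). The neuron gene Gap43, a growth cone protein, was higher in rows A-B than in rows F-G by 1.49 (limma adjusted p = 0.035), and Nrgn (neurogranin) and Chn1 (chimaerin) were lower there, with differences of -1.65 and -1.29 (limma adjusted p = 0.035 each). Aldoc and Glul did not pass in that comparison.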
